A study of Mus musculus with 12 samples.

Results

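Complement and acute phase transcripts of the kidney were followed here through 9 genes, C3, C4b, Cfb, Cfi, Saa4, Hp, Fgb, Fgg and Serpina7, whose Ensembl identifiers map to these symbols among 28991 genes of the deposited read count table. The study asked how dichloroacetate (DCA), an inhibitor of pyruvate dehydrogenase kinase, and cisplatin, a platinum anticancer drug that injures the proximal tubule, change gene expression in the mouse kidney. All 12 mice were male BALB/c animals, an inbred strain, aged 8 weeks, and each gave 1 kidney RNA library. Saline mice were injected into the peritoneum daily for 6 days. DCA mice received 250 mg/kg DCA daily for 6 days in place of saline. Cisplatin mice received saline for 5 days and then a single dose of 20 mg/kg cisplatin, with the kidney taken 24 h later. Combination mice received DCA for 5 days and then the same cisplatin dose together with DCA, with the kidney again taken 24 h later. Each group held 3 mice, which the labels call biological replicates.

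Complement is a cascade of plasma proteins. It is started by antibody, by sugar-binding lectins or by the alternative pathway, and all routes meet at the cleavage of C3. Acute phase proteins are plasma proteins whose synthesis in the liver rises or falls in inflammation, largely under interleukin 6 type cytokines, STAT3, C/EBP factors and NF-kB. The liver makes most of the circulating pool, but renal tubule cells are also known to transcribe C3, factor B and fibrinogen chains.

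Library totals ran from 29505929 to 62237514 counts and were lower in mice given cisplatin. Values are given as CPM, a gene's reads relative to its library's total in the usual per-million unit after TMM scaling, and levels of different genes are compared only as CPM per kb of exon. A gene was called when its adjusted p, from the edgeR quasi-likelihood test with Benjamini-Hochberg adjustment over 20370 genes, was below 0.05. Of the 9 genes, 8 passed the filter on low counts. Saa4 and Serpina7 passed through the cisplatin-injected mice, since only 1 of the 6 libraries without cisplatin reached the 0.27 CPM that the filter asks of 3 libraries, so that these 2 genes had to differ between groups. Fgb did not pass. All 12 measured proximal tubule markers fell with cisplatin (median log2 fold change -1.79), and their summed level was 30600 to 34600 CPM in saline mice and 9980 to 12400 CPM in cisplatin mice. In whole kidney, fewer cells of a type and less RNA per cell cannot be told apart.

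One library carried liver transcripts. Saline replicate 2 was the highest of the 12 libraries for 13 of 18 hepatocyte markers. It held 333 reads of Alb, the serum albumin gene, against 31 to 83 in the other libraries, and 34 reads of the fetuin gene Ahsg against 0 to 2. Summed hepatocyte markers ran from 159 to 222 CPM in saline mice, 103 to 166 in DCA mice, 58.5 to 66.1 in cisplatin mice and 85.9 to 93.4 in combination mice, a sum that includes genes the kidney also transcribes, such as Hpd. Of 10 tested hepatocyte markers, 3 rose with cisplatin, 5 fell and 2 were not called, beside 29.7% higher and 30.4% lower over all tested genes. The 5 that fell were Alb (-1.03 on the log2 scale), Apob (-2.32), Serpinc1 (-1.48), Hpd (-2.43) and Tdo2 (-0.78). Alb stood at 1.84, 6.39 and 2.07 CPM in saline mice and 2.16, 1.07 and 1.87 CPM in cisplatin mice. Only saline replicate 2, the library with liver transcripts, lay above all cisplatin mice for Alb. Apoc3, an apolipoprotein gene, rose by 1.72 on the log2 scale from 3.38 to 11.1 CPM, and the antitrypsin genes Serpina1a and Serpina1c rose by 0.61 and 0.57. The part of liver transcripts in the values of C3, Saa4 and Serpina7 was not tested.

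The 9 genes spanned a wide range of levels and changed rank after cisplatin. In saline kidneys Cfb was the most abundant at 130 ± 13.5 CPM per kb (mean ± SD, n = 3, as throughout). C4b followed at 5.17 ± 0.254, C3 at 2.63 ± 0.582, Cfi at 1.35 ± 0.124 and Fgg at 0.971 CPM per kb. Hp at 0.2, Serpina7 at 0.1, Saa4 at 0.0923 and Fgb at 0.0363 CPM per kb were near the limit of detection, and the last 3 of these did not differ from each other beyond their spread. In cisplatin kidneys Cfb remained first at 79.3 ± 3.33 CPM per kb. C3 stood second at 27.8 ± 2.91, and Serpina7 at 7.57 and Saa4 at 7.36 CPM per kb, which did not differ beyond their spread, stood above C4b at 3.53. Cfi at 1.85, Fgg at 1.14, Hp at 0.447 and Fgb at 0.0575 CPM per kb followed.

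**Figure D1:**
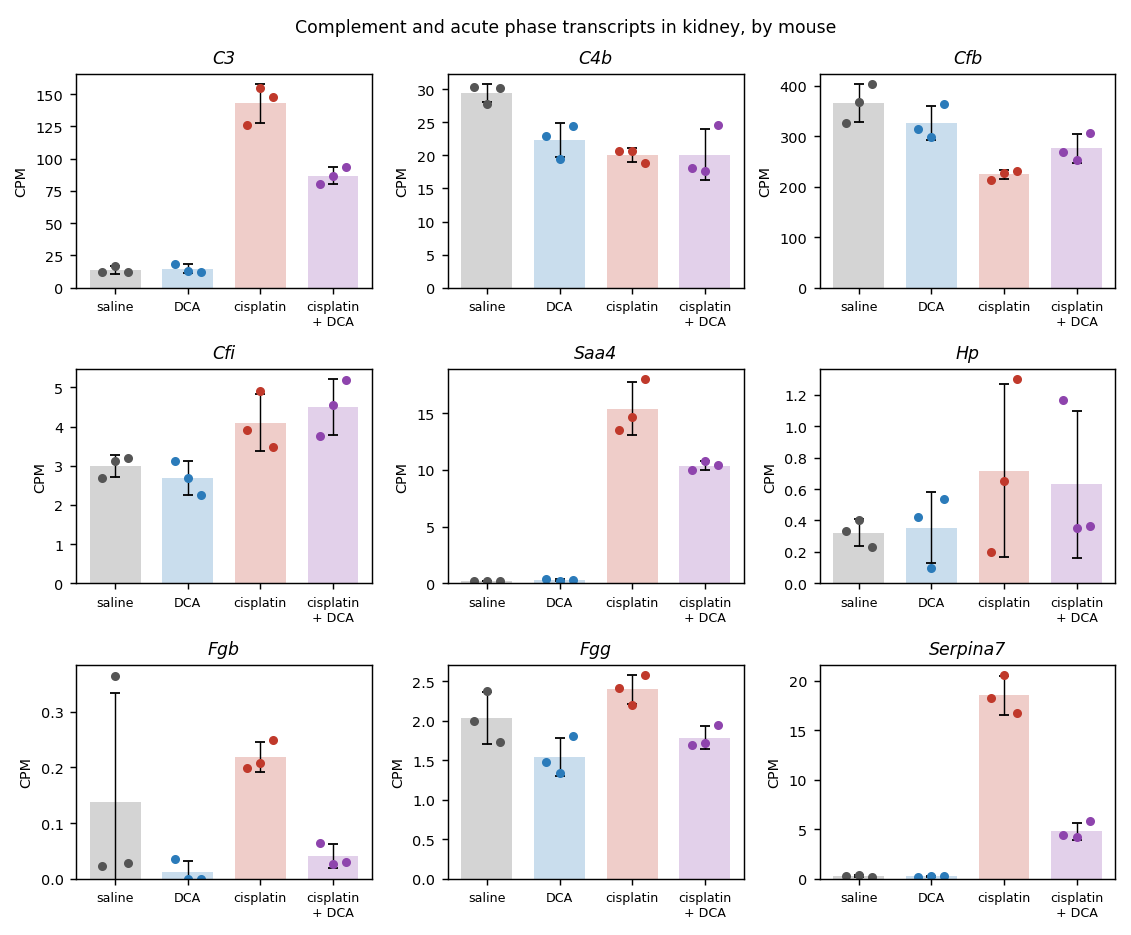
Level of each of the 9 genes by mouse. The vertical axis is CPM on a linear scale that differs between panels, points are mice, bars are group means and error bars are SD (n = 3), cut at 0 for Fgb in saline mice. C3, Saa4 and Serpina7 are high in all 6 mice given cisplatin and lower in the combination than after cisplatin alone, whereas Cfb and C4b are lower after cisplatin than in saline mice.

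Cisplatin alone raised 4 of the 8 tested genes (C3, Saa4, Serpina7 and Cfi) and lowered 2 (C4b and Cfb), with Hp and Fgg not called. Over all tested genes the same test called 29.7% as higher and 30.4% as lower, so that a call in itself was common in this comparison. Saa4 and Serpina7, which entered the test through the cisplatin-injected mice, were 2 of the 4 that rose. Among the other 6 genes, 2 rose, 2 fell and 2 were not called, with a median log2 fold change of 0.34, against 0.80 over the 8 genes and -0.01 over all tested genes. In DCA-treated mice, cisplatin raised C3, Saa4, Serpina7 and Cfi and lowered none in this fit, against 21.5% of all genes higher and 19.2% lower. Cfb was called lower there with median-of-ratios scaling, DESeq2, no filter on low counts or the replicate block, and in 4 of 12 fits that leave out 1 library. The combination against saline had 4 higher and 2 lower, against 20.6% and 19.6% of all genes.

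C3 encodes the central complement component, which every activation route cleaves. It lies at chr17:57203970-57228136 on the minus strand (mm10, ENSMUSG00000024164). C3 stood at 11.9, 17.0 and 11.8 CPM in the saline mice and at 18.5, 12.9 and 12.4 CPM in the DCA mice. It reached 126, 155 and 148 CPM in the cisplatin mice and 80.5, 86.7 and 93.5 CPM in the combination mice. Both groups given cisplatin lay above every mouse without it, and all combination mice lay below all cisplatin mice. The log2 fold change of cisplatin over saline was 3.39 (SE 0.17, edgeR adjusted p = 1.7e-09), and that of the combination over DCA was 2.56 (SE 0.16, edgeR adjusted p = 6.3e-08).

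Saa4 encodes a serum amyloid A protein of high-density lipoprotein, a form known as constitutive rather than inducible in the liver. It lies at chr7:46727998-46732603 on the minus strand (mm10, ENSMUSG00000040017). Its level was 0.177, 0.23 and 0.173 CPM in saline mice and 0.349, 0.174 and 0.27 CPM in DCA mice. It was 13.5, 14.7 and 18 CPM after cisplatin and 9.95, 10.8 and 10.4 CPM after the combination. The groups with and without cisplatin were far apart, and the combination lay below cisplatin alone in every mouse. The log2 fold change was 6.27 (SE 0.19, edgeR adjusted p = 3.2e-11) for cisplatin over saline. As Saa4 entered the test through the cisplatin-injected mice, this p is not independent support for the rise.

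Its relatives, the inducible Saa1, Saa2 and Saa3, had far fewer reads. Saa1 had 0, 0 and 2 reads in saline mice, none in DCA mice, 14, 23 and 35 in cisplatin mice and 5, 4 and 15 in combination mice. Saa3 had 0, 5 and 0 reads in saline mice, none in DCA mice, 44, 33 and 29 in cisplatin mice and 1, 4 and 23 in combination mice. Saa2 had 1, 3 and 2 reads in cisplatin mice and none elsewhere. Saa1 and Saa2 are near-identical copies, so reads may be split between them. Per kb of exon, the ratio of Saa4 to Saa1 was 40.2, 25.5 and 24.4 in the 3 cisplatin kidneys.

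Serpina7 encodes thyroxine-binding globulin, a plasma carrier of thyroid hormone, and belongs to the serpins although it inhibits no protease. It lies at chrX:139079257-139085236 on the minus strand (mm10, ENSMUSG00000031271). It stood at 0.266, 0.326 and 0.144 CPM in saline mice and 0.21, 0.249 and 0.243 CPM in DCA mice. Cisplatin mice had 18.3, 20.6 and 16.7 CPM, and combination mice 4.39, 4.21 and 5.79 CPM. The highest combination mouse was thus well below the lowest cisplatin mouse, and the lowest was well above every mouse without cisplatin. The log2 fold change was 6.16 (SE 0.2, edgeR adjusted p = 4.7e-11) for cisplatin over saline and 4.36 (SE 0.22, edgeR adjusted p = 7.0e-09) for the combination over DCA. As Serpina7 also entered the test through the cisplatin-injected mice, these p values are not independent support for the rise.

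The sequences before the start sites of these 3 genes and of the fibrinogen chain genes Fga and Fgg are shown because the first 4 rose with cisplatin while Fgg was not called. They come from RefSeq promoters (build GRCm38.p6), which held 5 of the 9 genes (C3, Saa4, Serpina7, Fgb and Fgg). C4b, Cfb, Cfi and Hp were not matched. Each runs 5′ to 3′ on the gene's strand and ends at the base before the first annotated exon, with capitals for matches on either strand to TTNNGNAA (C/EBP), TTCNNNGAA (STAT) or TGANTCA (AP-1), none of which overlapped another.
C3, chr17:57228137-57228386: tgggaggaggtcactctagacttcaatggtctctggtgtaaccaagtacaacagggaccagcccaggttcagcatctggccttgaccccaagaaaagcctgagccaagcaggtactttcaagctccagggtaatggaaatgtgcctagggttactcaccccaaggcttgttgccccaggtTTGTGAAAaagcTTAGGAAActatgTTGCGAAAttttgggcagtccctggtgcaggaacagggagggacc
Saa4, chr7:46732604-46732853: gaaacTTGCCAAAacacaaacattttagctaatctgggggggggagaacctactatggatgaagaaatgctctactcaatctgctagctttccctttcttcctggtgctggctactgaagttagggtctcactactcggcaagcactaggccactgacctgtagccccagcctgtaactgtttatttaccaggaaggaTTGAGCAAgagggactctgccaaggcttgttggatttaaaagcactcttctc
Serpina7, chrX:139085237-139085486: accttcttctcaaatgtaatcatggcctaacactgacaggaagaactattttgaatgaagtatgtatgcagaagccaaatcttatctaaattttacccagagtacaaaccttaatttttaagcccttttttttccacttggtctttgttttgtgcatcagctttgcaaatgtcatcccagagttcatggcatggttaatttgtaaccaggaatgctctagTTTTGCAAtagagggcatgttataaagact
Fga, chr3:83025903-83026075: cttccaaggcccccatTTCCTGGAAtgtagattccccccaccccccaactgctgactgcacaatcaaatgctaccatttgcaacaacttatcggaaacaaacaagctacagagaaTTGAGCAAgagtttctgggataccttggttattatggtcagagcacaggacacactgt
Fgg, chr3:83007474-83007723: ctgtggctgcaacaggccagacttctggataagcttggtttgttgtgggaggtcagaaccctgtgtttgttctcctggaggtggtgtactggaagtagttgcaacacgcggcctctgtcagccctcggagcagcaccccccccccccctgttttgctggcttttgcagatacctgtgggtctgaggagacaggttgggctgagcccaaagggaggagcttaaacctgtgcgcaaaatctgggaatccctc

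The C3 sequence held 3 matches to TTNNGNAA within 70 bases of the start, Saa4 held 2, Serpina7 and Fga held 1 each, and the Fgg sequence held none. TTGAGCAA occurred in both Saa4 and Fga. Fga also held 1 match to TTCNNNGAA. Fgb, not printed, held 2 matches to TTNNGNAA, 1 to TTCNNNGAA and 1 to TGANTCA. Of 32851 promoter windows of 250 bases, 36.8% held TTNNGNAA, 7.02% TTCNNNGAA and 6.75% TGANTCA. NF-kB and p53 half-site motifs were each searched as a fixed letter pattern with alternative bases allowed at some positions. They occurred in 7.25% and 7.13% of windows and in none of these sequences. A match is a description of letters and not a measured binding site.

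Cfb encodes factor B, which supplies the protease of the alternative pathway C3 convertase. It lies at chr17:34856374-34862518 on the minus strand (mm10, ENSMUSG00000090231), next to C2, its classical pathway counterpart. Cfb stood at 327, 368 and 403 CPM in saline mice, 314, 299 and 364 in DCA mice, 214, 227 and 232 in cisplatin mice and 269, 252 and 307 in combination mice. All cisplatin mice lay below all others, and the other groups overlapped with their neighbours. Its log2 fold change was -0.71 (SE 0.09, edgeR adjusted p = 2.0e-05) for cisplatin over saline and -0.24 (SE 0.09, edgeR adjusted p = 0.055) for the combination over DCA. The annotation holds a same-strand gene model, Gm20547, that covers exons of both Cfb and C2 and had 100% to 108% of the Cfb count in each library, so reads of these models cannot be assigned to 1 gene with certainty. C2 itself fell with cisplatin, with a log2 fold change of -0.58 (edgeR adjusted p = 7.8e-05).

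The ratio of Cfb to C3 per kb of exon was 50.6 ± 11.5 in saline kidneys, 42.1 ± 11.3 in DCA kidneys, 2.87 ± 0.21 in cisplatin kidneys and 5.78 ± 0.427 in combination kidneys. Transcripts of the protease and of its partner C3 thus came closer in number after cisplatin, with no overlap between mice with and without the drug. The fall of Cfb went with the fall of the proximal tubule markers, and their part in the result was not tested.

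C4b encodes complement C4, which the classical and lectin pathways cleave to form their convertase. It lies at chr17:34728380-34743882 on the minus strand (mm10, ENSMUSG00000073418). C4b stood at 30.3, 27.8 and 30.2 CPM in saline mice, 22.9, 19.5 and 24.5 in DCA mice, 20.7, 20.7 and 18.9 in cisplatin mice and 18.1, 17.7 and 24.6 in combination mice. Saline mice were above all others, and the other 3 groups overlapped. The log2 fold change was -0.55 (SE 0.11, edgeR adjusted p = 9.0e-04) for cisplatin over saline. For DCA over saline it was -0.40 (SE 0.11), with an adjusted p of 0.17 by edgeR.

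C4a, the near-identical neighbouring copy at chr17:34809092-34823464 (mm10), fell with cisplatin too, with a log2 fold change of -1.70 (edgeR adjusted p = 1.7e-06). The C4b to C4a ratio per kb was 0.862 ± 0.0194 in saline kidneys and 1.92 ± 0.144 in cisplatin kidneys. Because reads of the copies may be exchanged, their sum is the safer measure, and it was 66.6 ± 3.07 CPM in saline mice, 54.3 ± 10.3 CPM in DCA mice, 31.6 ± 0.905 CPM in cisplatin mice and 32.8 ± 6.87 CPM in combination mice. Both groups given cisplatin lay below every saline mouse, and the sums were not tested.

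Cfi encodes factor I, the protease that inactivates cleaved C3 and C4. It lies at chr3:129835884-129875332 on the plus strand (mm10, ENSMUSG00000058952). Cfi stood at 2.68, 3.11 and 3.19 CPM in saline mice, 3.13, 2.69 and 2.26 in DCA mice, 3.92, 4.9 and 3.47 in cisplatin mice and 3.77, 4.56 and 5.18 in combination mice. Every mouse given cisplatin was above every mouse without it. The log2 fold change was 0.45 (SE 0.16, edgeR adjusted p = 0.028) for cisplatin over saline and 0.73 (SE 0.16, edgeR adjusted p = 0.0029) for the combination over DCA. Without saline replicate 1 or cisplatin replicate 2 the first was no longer called (0.38 and 0.31, edgeR adjusted p = 0.097 and 0.14).

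Fibrinogen, the clotting protein and an acute phase reactant, is assembled from equal numbers of alpha, beta and gamma chains encoded by Fga, Fgb and Fgg, which lie side by side on chromosome 3. The Fga to Fgg ratio was higher in every cisplatin kidney than in every other kidney. Fgg, at chr3:83007724-83015049 on the plus strand (mm10, ENSMUSG00000033860), stood at 1.99, 2.38 and 1.73 CPM in saline mice and 2.41, 2.2 and 2.57 in cisplatin mice. It stood at 1.47, 1.34 and 1.81 in DCA mice and 1.69, 1.71 and 1.95 in combination mice. Its cisplatin change of 0.23 on the log2 scale was not called (SE 0.15, edgeR adjusted p = 0.21).

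Fga, at chr3:83026076-83033627, stood at 13, 14.8 and 12.2 CPM in saline mice and 68.1, 81.0 and 81.4 in cisplatin mice. In DCA mice it stood at 11.1, 12.7 and 11.8 CPM and in combination mice at 32.5, 30.4 and 31.8 CPM. Cisplatin raised Fga by 2.52 on the log2 scale (SE 0.09, edgeR adjusted p = 7.9e-11). Per kb of exon, the Fga to Fgg ratio was 4.59 ± 0.295 in saline kidneys, 5.46 ± 1.04 in DCA kidneys, 22.4 ± 3.01 in cisplatin kidneys and 12.4 ± 1.02 in combination kidneys. Fgg overlaps an antisense model, and the labels name a library kit without saying that strand was kept, so some of its reads may belong to the other strand.

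**Figure D2:**
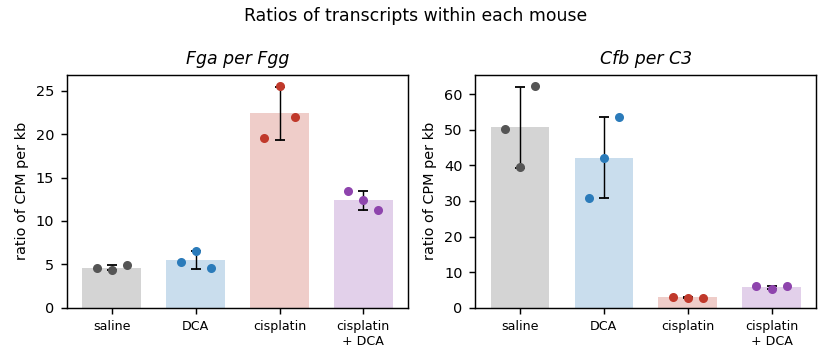
Ratios within each mouse, of Fga to Fgg (left) and of Cfb to C3 (right), both as CPM per kb of exon on a linear axis from 0. Points are mice, bars are means and error bars SD (n = 3). Fga per Fgg runs from 19.6 to 25.6 in cisplatin mice, above all other groups, and Cfb per C3 is 2.87 on average there against 50.6 in saline mice.

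Fgb, at chr3:83040141-83049863 on the minus strand (mm10, ENSMUSG00000033831), was barely transcribed. It had 1, 19 and 1 reads in saline mice, 2, 0 and 0 in DCA mice, 7, 7 and 10 in cisplatin mice and 2, 1 and 1 in combination mice. The 19 reads were those of the saline library with liver transcripts. The ratio of read rates of cisplatin over saline was 1.39, with a 95% exact interval of 0.74 to 2.62, and without saline replicate 2 it was 8.81 (2.19 to 76.9). These intervals cover counting error only. In a fit without the filter on low counts, the log2 fold change was 0.52 (SE 0.68, edgeR adjusted p = 0.58) with all libraries and 2.98 (SE 0.83, edgeR adjusted p = 0.0074) without that library, which rests on 2 saline reads. Leaving it out was chosen after seeing the data.

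Hp encodes haptoglobin, the plasma protein that binds free haemoglobin. It lies at chr8:109575128-109579172 on the minus strand (mm10, ENSMUSG00000031722). Its level was 0.332, 0.403 and 0.23 CPM in saline mice, 0.419, 0.0995 and 0.539 in DCA mice, 0.199, 0.654 and 1.3 in cisplatin mice and 1.17, 0.353 and 0.365 in combination mice. The spread within groups was as large as the differences between them, and the cisplatin change of 1.14 was not called (SE 0.64, edgeR adjusted p = 0.14). It was called without cisplatin replicate 1 (1.60, edgeR adjusted p = 0.035).

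In the DCA and cisplatin groups, Hp was lowest in the mouse with the fewest reads of the adipocyte marker Cfd, and in the combination group both were highest in replicate 1. Adipoq, the adiponectin gene, had 52, 1 and 32 reads in DCA mice, 3, 13 and 25 in cisplatin mice and 32, 0 and 0 in combination mice, whereas Hp had 24, 4 and 20, then 7, 22 and 52, then 36, 13 and 12 reads. Saline mice had 4, 4 and 3 Adipoq reads and 15, 21 and 8 Hp reads. Cfd, the adipocyte gene for factor D of the alternative pathway, followed Adipoq, with 103, 0 and 72 reads in DCA mice, 1, 67 and 70 in cisplatin mice and 62, 3 and 13 in combination mice. It had 9, 15 and 10 reads in saline mice, where Hp was lowest in replicate 3 and Cfd was not. In CPM, Lep, Plin1, Plin4, Cidec and Retn were also lowest in DCA replicate 2 and cisplatin replicate 1 and highest in combination replicate 1. Fabp4 did not follow Hp in DCA mice, at 45.6, 46.4 and 43.9 CPM. Of 7 tested adipocyte markers, 2 rose with cisplatin and none fell, beside 29.7% and 30.4% of all genes. Both reached the filter in fewer than 3 libraries without cisplatin, and the 2 markers that reached it in 3 or more were not called. The summed level of the 8 markers was 47.2 to 53.6 CPM in saline mice and 36.6 to 57.6 CPM in cisplatin mice. Most of it came from Fabp4, which the kidney also transcribes. The part of adipocyte RNA in the Hp values was not tested.

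**Figure D3:**
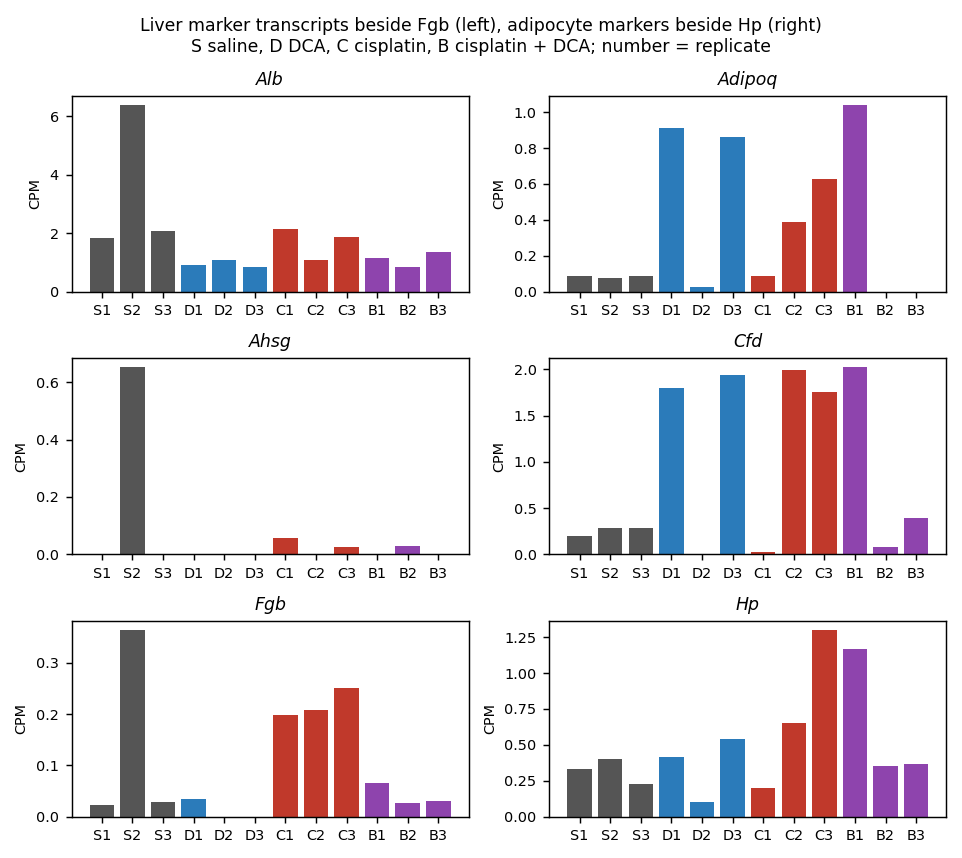
CPM by library of the liver genes Alb and Ahsg above Fgb (left) and of the adipocyte genes Adipoq and Cfd above Hp (right), on linear axes from 0. S is saline, D is DCA, C is cisplatin and B is the combination, followed by the replicate number. Saline replicate 2 is the highest library for Alb, Ahsg and Fgb, and the libraries highest in Hp, which are cisplatin replicates 2 and 3 and combination replicate 1, all have Adipoq above its saline level.

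DCA alone called none of the 8 tested genes. In edgeR's quasi-likelihood test 2 genes, C4b and Fgg, had an unadjusted p below 0.05, and DESeq2 and limma also called 0. Across all genes the shares were 0.128% higher and 0.182% lower. C3 had a log2 fold change of 0.11 (edgeR adjusted p = 0.84), Cfb of -0.17 (edgeR adjusted p = 0.51), Saa4 of 0.47 (edgeR adjusted p = 0.63) and Serpina7 of -0.15 (edgeR adjusted p = 0.91). A p above the threshold does not show that DCA left these genes as they were.

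Against cisplatin alone, the combination had lower C3, Saa4 and Serpina7 and higher Cfb, and 4 of the 8 tested genes were not called. Over all tested genes 18.1% were higher and 13.5% lower. The fall was 1.95 on the log2 scale for Serpina7 (SE 0.14, edgeR adjusted p = 1.7e-06). C3 fell by 0.72 (SE 0.15, edgeR adjusted p = 0.0026) and Saa4 by 0.57 (SE 0.12, edgeR adjusted p = 0.0023), and Fga, outside the 9 genes, by 1.28 (SE 0.08, edgeR adjusted p = 1.0e-06). Cfb was higher by 0.30 (SE 0.09, edgeR adjusted p = 0.025), a call that was lost without cisplatin replicate 1, cisplatin replicate 2 or combination replicate 3 (0.25, 0.31 and 0.19, edgeR adjusted p = 0.13, 0.061 and 0.16). C4b and Cfi were not called (0.00 and 0.14), nor were Hp at -0.24 and Fgg at -0.43 (SE 0.16, edgeR adjusted p = 0.057). Fgg was called lower with limma (-0.44) and in the edgeR fits without saline replicate 3 or DCA replicate 3 (edgeR adjusted p = 0.046 and 0.048). All 12 proximal tubule markers were higher in the combination than after cisplatin (median 0.85), and their summed level was 14600 to 17600 CPM; their part in these results was not tested. The comparisons share the cisplatin or the saline mice.

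The difference between the effects of cisplatin with and without DCA, an interaction term of the same fit, was called for 3 of the 8 genes. It was positive for Cfb and negative for C3 and Serpina7. All genes gave 11.4% positive and 7.15% negative calls. For Serpina7 it was -1.80 (SE 0.38, edgeR adjusted p = 0.0055), for C3 -0.83 (SE 0.22, edgeR adjusted p = 0.019) and for Cfb 0.47 (SE 0.13, edgeR adjusted p = 0.025). Saa4 gave -1.04 (SE 0.35, edgeR adjusted p = 0.052), and was called at -1.06, -1.07 and -0.95 under median-of-ratios scaling, DESeq2 and limma (adjusted p = 0.046, 0.044 and 0.038). C3 was no longer called without cisplatin replicate 2 (edgeR adjusted p = 0.051) or combination replicate 1 (edgeR adjusted p = 0.053). Cfb was no longer called in 7 of the 12 fits that leave out 1 library, at 0.35 to 0.48 in those fits (edgeR adjusted p from 0.051 to 0.085). They left out saline replicate 2 or 3, DCA replicate 1 or 2, cisplatin replicate 1 or 2, or combination replicate 3. Fga had -1.11 (SE 0.12, edgeR adjusted p = 9.5e-05). C4b at 0.40 was not called (edgeR adjusted p = 0.11), and neither were Cfi, Hp and Fgg.

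**Figure D4:**
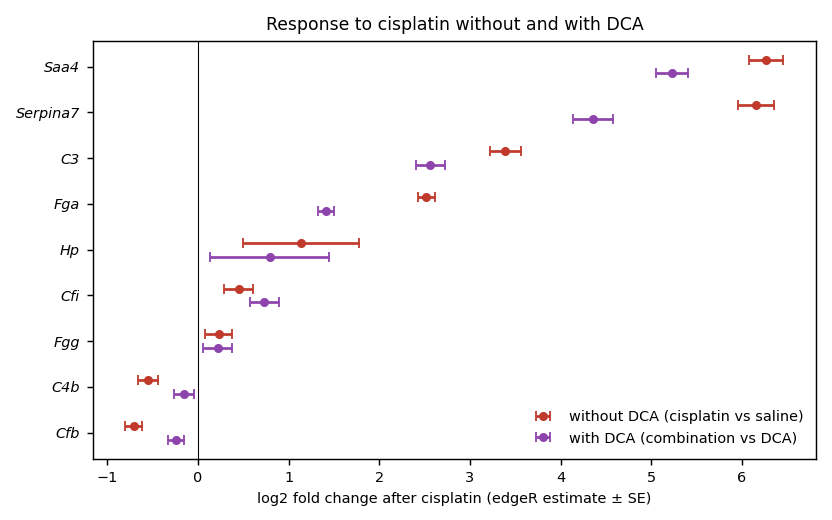
Log2 fold change after cisplatin of the 8 tested genes and Fga, without DCA (cisplatin against saline) and with DCA (combination against DCA). Points are edgeR estimates and bars are SE. Serpina7 moves from 6.16 to 4.36, C3 from 3.39 to 2.56 and Cfb from -0.71 to -0.24.

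The rest of the complement system was described from lists that include these genes, to be read against the 29.7% of all genes called higher and 30.4% called lower with cisplatin. Of 14 tested classical and lectin pathway genes, 1 rose, 5 fell and 8 were not called with cisplatin (median -0.42), shares near or below those of all genes. The 1 that rose reached the filter in fewer than 3 libraries without cisplatin, and none of the other 13 rose (median -0.44). C2 and C4a fell, as did Masp2, a lectin pathway protease, by 0.44. Of 4 tested genes of C3 and the alternative pathway, C3 rose, Cfb fell and the genes of factor D and properdin were not called (median 1.19, and 0.09 without Cfd). Of 4 tested terminal pathway genes, which build the membrane attack complex, 1 rose and 2 fell (median -0.22). C7 rose by 0.93 on the log2 scale, C8a fell by 1.15 and C8g fell by 0.78.

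Complement regulators were mixed, with 3 of 15 higher, 5 lower and 7 not called (median -0.23). Of the 3, 1 reached the filter in fewer than 3 libraries without cisplatin, and 2 of the other 14 regulators were higher (median -0.24). Cd55, decay-accelerating factor, rose by 1.20 on the log2 scale from 9.81 to 22.5 CPM. Susd4 fell by 1.55, Cd46, the membrane cofactor for factor I, fell by 0.90, and Cd59a, an inhibitor of the attack complex, fell by 0.39. Of 9 complement receptors, Itgam, a chain of the iC3b receptor CR3, rose by 0.75, Cr2 fell by 1.47 and 7 were not called (median -0.10). Macrophage markers, among which Itgam also counts, had 2 of 10 higher and 5 lower, with sums of 187 to 220 CPM in saline and 147 to 174 CPM in cisplatin mice. The other marker that rose was Cd68, named after its values were seen, by 4.00 on the log2 scale. It went from 2.04 CPM in saline to 33.1 CPM in cisplatin mice and stood at 4.86 CPM in combination mice. Of 5 tested neutrophil markers, S100a8 and S100a9 rose with cisplatin, by 1.84 and 1.71 on the log2 scale, and 3 were not called. S100a8 and S100a9 reached the filter in fewer than 3 libraries without cisplatin, and the other 3 had a median of 0.34. Over all genes 29.7% were called higher. Neutrophil marker sums were 17.7 to 26.2 CPM in saline and 26.7 to 31.7 CPM in cisplatin mice, with Elane, Ngp and Camp at 0 in saline mice, and lymphocyte sums were 1.69 to 2.48 and 1.75 to 2.26 CPM. Their part in the results was not tested.

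Among acute phase genes that rise in inflammation, 14 of 20 tested rose with cisplatin, none fell and 6 were not called (median 1.26), beside 29.7% of all genes higher and 30.4% lower. Of the 14, Saa1, Saa3, Saa4, Apcs, Serpina3n and Il1rn reached the filter in fewer than 3 libraries without cisplatin, and of the other 14 tested genes 8 rose and 6 were not called (median 0.86). The list held 31 genes, and the rest were too low to test. Il1rn, the interleukin 1 receptor antagonist gene, rose by 5.05 from 0.0763 to 2.84 CPM, Lcn2, the lipocalin that binds bacterial siderophores, by 2.83, and Cd14, the lipopolysaccharide co-receptor, by 2.31. In the combination against cisplatin 5 of the 20 fell, none rose and 15 were not called (median -0.45), beside 13.5% lower and 18.1% higher over all genes. They were Fga, Saa4, Cd14, Il1rn and the serum amyloid P gene Apcs, the last named after its values were seen, and Il1rn stood at 0.472 CPM in combination mice. Among 13 acute phase proteins that fall in inflammation or carry other molecules, 4 rose and 6 fell (median -0.12), Serpina7 among the 4. Serpina7 and 1 of the 6 reached the filter in fewer than 3 libraries without cisplatin. Of the 10 genes that reached it in 3 or more, 3 rose and 5 fell (median -0.5). Gc, the vitamin D binding protein gene, rose by 4.14 from 12.9 to 227 CPM and stood at 128 CPM in combination mice. Ttr, the gene of transthyretin, another thyroxine carrier, fell by 1.17 and Igf1 by 1.12. Alb fell by 1.03, with the saline group holding the library with liver transcripts. So Serpina7 and Ttr, 2 genes for thyroid hormone carriers, were called in opposite directions.

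Serpina7 also stands among 17 tested serpins of clade A, with 6 higher, 1 lower and 10 not called after cisplatin (median 0.35), again beside 29.7% and 30.4% of all genes. Of the 6, 3 reached the filter in fewer than 3 libraries without cisplatin, Serpina7 among them. Of the 13 that reached it in 3 or more, 3 rose, 1 fell and 9 were not called (median 0.31). Serpina10, which inhibits factor Xa with protein Z, rose by 2.49 on the log2 scale, and Serpina1f fell by 1.57. Serpina1a and Serpina1c, near-identical antitrypsin copies whose reads may be exchanged, rose by 0.61 and 0.57. Of 18 tested genes of clotting and fibrinolysis other than the fibrinogen chains, 7 rose, 8 fell and 3 were not called (median -0.36), beside 29.7% and 30.4% of all genes. Plaur, the urokinase receptor gene, rose by 1.90 on the log2 scale. F13b, the carrier chain of the fibrin cross-linking factor XIII, fell by 2.07 from 112 to 26.7 CPM, and Serpinf2, of the plasmin inhibitor antiplasmin, fell by 1.87.

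Of 33 tested genes of acute phase signalling, cisplatin raised 18 and lowered 5, with 10 not called (median 0.70), beside 29.7% and 30.4% of all genes. Of the 18, 2 reached the filter in fewer than 3 libraries without cisplatin. Of the other 31 genes, 16 rose, 5 fell and 10 were not called (median 0.44). In the combination against cisplatin 5 of the 33 were higher, 19 lower and 9 not called (median -0.63), beside 18.1% and 13.5% of all genes. Stat3, the transcription factor of interleukin 6 type cytokines, stood at 51.5 CPM in saline, 49.1 in DCA, 157 in cisplatin and 88.9 in combination mice on average. Its cisplatin log2 fold change was 1.61 (edgeR adjusted p = 9.0e-11) and its interaction -0.75 (edgeR adjusted p = 7.5e-05). Socs3, a feedback inhibitor of this pathway, rose by 2.31 (edgeR adjusted p = 1.8e-06), with an interaction of -1.13 (edgeR adjusted p = 0.039). Cebpb rose by 2.22 (edgeR adjusted p = 2.2e-07) and Cebpd by 1.08 (edgeR adjusted p = 4.3e-04), and their interactions were -1.40 (edgeR adjusted p = 0.0023) and -0.62 (edgeR adjusted p = 0.17). Nfkbiz, an NF-kB cofactor, rose by 2.06 (edgeR adjusted p = 3.7e-09), with an interaction of -0.80 (edgeR adjusted p = 0.0034). Lif, a cytokine of the interleukin 6 type, rose by 4.51 from 0.505 to 11.3 CPM and stood at 4.97 CPM in combination mice, whereas Il6 itself had 0 to 3 reads in every library. Nfkb2 rose by 2.19.

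**Figure D5:**
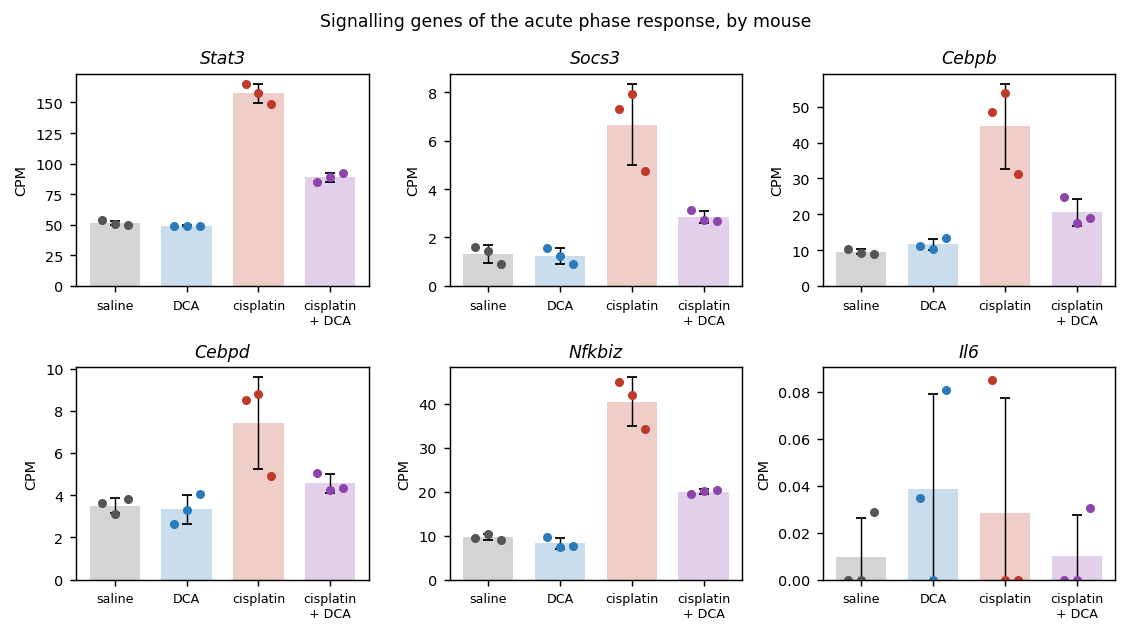
Level by mouse of Stat3, Socs3, Cebpb, Cebpd, Nfkbiz and Il6, as CPM on linear axes from 0 that differ between panels. Points are mice, bars are means and error bars SD (n = 3), cut at 0 for Il6. Stat3, Cebpb, Nfkbiz and Socs3 are highest in the cisplatin mice, with Stat3 at 157 CPM there and 88.9 CPM in the combination, and Il6 is near 0 in all groups.

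By likeness of pattern, measured as the root mean square difference over 12 libraries of log2 CPM centred on the saline mean among 12866 candidate genes, C3 was nearest to Plk2 at 0.22, Mybl1 at 0.24 and Tnfrsf10b at 0.25. Saa4 was nearest to Eda2r at 0.36, Inka2 at 0.44 and Gstp3 at 0.45, and Serpina7 to Cxcl1 at 0.48, Psrc1 at 0.54 and Phlda3 at 0.56. Cfb was nearest to the overlapping Gm20547 at 0.04, then to Ggact and Sel1l3 at 0.07. C4b was nearest to Man2b1 at 0.13, Cfi to Elovl2 at 0.13 and Fgg to Bid at 0.16. Hp, with 4 to 52 reads a library, had no close match, with Psat1 the nearest at 0.70. At so few reads its own spread enlarges any such difference. These values are descriptions with no test.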

How the data were processed

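Kidney RNA of 12 mice was sequenced from TruSeq libraries, per the labels' protocols. The submitters' processing notes name Trimmomatic, TopHat, Cufflinks, HTSeq, bedtools, DESeq and mm10, without versions. Their settings are not given in the sources here. The authors deposited whole-number counts per Ensembl gene, 1 column per library, and a second table of normalised signal, which equals the deposited counts over 1 factor per library. Symbols, positions and exon lengths came from GENCODE M21 (27955 of 28991 genes matched).

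Counts were tested with the edgeR 4.0.16 quasi-likelihood test in R 4.3.3 (TMM scaling, filterByExpr), with 12 libraries in 1 fit, a mean per group and 8 residual degrees of freedom. SE is the absolute log2 fold change divided by the square root of F. Alternatives were median-of-ratios scaling, DESeq2 1.42.0, no filter, a replicate block, limma 3.58.1 on the log2 of the deposited normalised signal plus 1, and leaving out each library. Replicates within groups differed by more than counting noise (chi-square per degree of freedom 4.6 to 28.2). Scripts were tested on simulated data.

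The 9 genes and all lists were chosen with earlier results of these data known. Named besides the 9 are up to 4 genes per list with the largest cisplatin change among those called and at 1 CPM or more in some group, copies and neighbours of the 9, shared upstream genes, and the nearest genes in pattern. Of 256 list entries, 3 were not matched.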

Additional observations from a re-analysis of the deposited data

Results flagged for a closer look

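The effect of cisplatin differed between mice with and without DCA for 3 of the tested genes, by the interaction term of the edgeR quasi-likelihood fit. It was -1.80 for Serpina7 (SE 0.38, adjusted p = 0.0055), with cisplatin effects of 6.16 without DCA and 4.36 with it. It was -0.83 for C3 (SE 0.22, adjusted p = 0.019), with effects of 3.39 and 2.56, and 0.47 for Cfb (SE 0.13, adjusted p = 0.025), with effects of -0.71 and -0.24. The Cfb interaction was no longer called in 7 of the 12 fits that leave out 1 library (edgeR adjusted p from 0.051 to 0.085), and that of C3 without cisplatin replicate 2 (edgeR adjusted p = 0.051) or combination replicate 1 (edgeR adjusted p = 0.053).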

How the results depend on the processing

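Over 48 comparisons of the 8 tested genes and 17 alternatives, 759 of 816 recomputed values kept direction and call, 15 lost their call, 18 gained one and 24 changed sign. Genes called for DCA against saline numbered 63, and 356 with DESeq2, 119 with no filter, 117 with the replicate block and 15 to 126 with 1 library left out; 0 of the 8 genes were called in every one of these. The count of 3 called interactions ran from 1 to 3 with 1 library left out, and was 1 without cisplatin replicate 2.

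All sign changes were of values that were not called. C4b in the combination against cisplatin was 0.00, and -0.01 with median-of-ratios scaling, DESeq2 and the replicate block, -0.03 with limma, and -0.20 to 0.09 with 1 library left out. With limma, Hp became -0.10 for DCA against saline and 0.02 for the interaction, and Serpina7 0.01 for DCA against saline. With 1 library left out, C3 ran from -0.10 to 0.32, Hp from -0.24 to 0.52 and Serpina7 from -0.36 to 0.12 for DCA against saline, Hp from -1.02 to 0.54 in the combination against cisplatin, and Hp from -1.12 to 0.44 and Fgg from -0.14 to 0.11 for the interaction. Fgb without saline replicate 2 changed from -1.85 to 0.61 for the combination against saline and from 0.75 to -1.71 for the interaction. Cfb in the combination against DCA (-0.24) was called with the replicate block (edgeR adjusted p = 0.0077), median-of-ratios scaling, DESeq2 and no filter, and in 4 fits with 1 library left out. C4b in this comparison was called without combination replicate 3 (-0.33, edgeR adjusted p = 0.016), and Cfi in the combination against saline was no longer called without it (0.48, edgeR adjusted p = 0.057). Fgg in the combination against cisplatin was called with limma (-0.44) and without saline replicate 3 or DCA replicate 3 (edgeR adjusted p = 0.046 and 0.048). The cause was not tested for any of these.

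Replicate numbers showed no clear pairing of the mice in these data, which does not exclude one. Deviations of same-numbered libraries correlated at -0.10 to 0.15 over 18 pairs, of which 4 were above 0.1. Of the 8 genes' values, the block changed only the 2 given here. Fgb rests on 0 to 19 reads a library.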
